A study of Homo sapiens with 10 samples.

Results

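The genes described are 10 members of the S100 family, namely S100A1, S100A2, S100A3, S100A4, S100A6, S100A10, S100A11, S100A13, S100A16 and S100B, taken by their gene symbols from the 57955 genes of the expression tables. All 10 passed the filter on low counts that kept 17288 genes. mRNA was sequenced from 5 BRAF-mutant human melanoma lines that respond to encorafenib, a BRAF inhibitor, with binimetinib, a MEK inhibitor, and from the resistant line (E+B_RES) derived from each, with 1 library per line and state and 10 libraries in all. WM983A, WM278 and WM902B came from primary tumours and WM983B and WM1617 from metastases, and according to the study WM983A and WM983B share a patient, as do WM278 and WM1617. The resistant lines had been selected over 3 to 5 months with both drugs, raised from 1 nM to 200 nM, and were kept in 200 nM, so that resistance and the presence of the drugs cannot be told apart. Each resistant culture is 1 derivative of its parental line, so the replicates of a state are different lines (n = 5 against 5) that are not all from different patients.

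S100 proteins are small proteins with a pair of EF-hands, the calcium-binding loops that most members use to change shape and grip a target protein. Most of their genes sit in 1 cluster on chromosome 1, and S100B is on chromosome 21. S100B is the classical immunostaining and serum marker of melanoma, and other members are known from muscle, epithelia or hair, or as partners of annexins at the plasma membrane.

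A level is given below as a normalized count, the rounded expected count of a gene divided by a library factor that the TMM method sets, and the libraries held 13693922 to 18033247 counts. The smallest level taken as detectable, 3 counts, was 0.166 to 0.219 CPM (counts scaled by library total). Within a line the change is a log2 ratio, the normalized count of the resistant library over that of the sensitive one after adding 1 to each. A positive ratio means a higher level in the resistant library, and with 1 library per state it is a size without a test. In such bulk RNA, fewer expressing cells and less RNA per cell cannot be told apart.

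S100B and S100A1 had the widest spread of change among the 10 genes. Both were far lower in the resistant libraries of WM983A, WM983B and WM902B, and neither was at least 2-fold lower in WM278 or WM1617. In the latter lines S100B was at least 2-fold higher, while S100A1 stayed within 2-fold.

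S100B, a calcium-dependent partner of p53 among others, had normalized counts of 9224, 3551, 1406, 624 and 2677 in the sensitive libraries of WM983A, WM983B, WM278, WM1617 and WM902B. In the resistant libraries the normalized counts were 54.2, 132, 9445, 1576 and 11.3 in the same order. The resistant group therefore held both the highest and the 3 lowest levels, and the groups overlapped. The log2 ratio was -7.39 in WM983A, -4.74 in WM983B and -7.77 in WM902B, a level 167, 26.7 and 218 times lower. It was 2.75 in WM278 and 1.33 in WM1617, or 6.72 and 2.52 times higher. The 95% counting interval of the ratio ran from 6.36 to 7.10 in WM278 and from 2.30 to 2.78 in WM1617. Both lie above 1, but such an interval covers counting error only and no variation between cultures or libraries. The mean log2 ratio was -3.16 ± 4.92 (SD, n = 5 lines), and the difference between the group means gave p = 0.135 in an exact permutation test, two-sided, whose smallest possible p is 0.00794. This test regroups the 10 libraries freely and takes no account of their pairing by line.

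S100A1, best known as a regulator of calcium handling in heart and skeletal muscle, had normalized counts of 1122, 1358, 20.9, 1491 and 1535 in the sensitive libraries, the lines in the same order. In the resistant libraries they were 31.1, 44.7, 19.3, 1666 and 27.7. The levels fell into a high set of 5 libraries, from 1122 to 1666, and a low set of 5, from 19.3 to 44.7, with no library between them. The high set held 4 sensitive libraries and resistant WM1617, and the low set held 4 resistant libraries and sensitive WM278. The log2 ratio was -5.13 in WM983A, -4.89 in WM983B and -5.74 in WM902B, against -0.11 in WM278 and 0.16 in WM1617. The counting interval of the ratio in WM278 ran from 0.477 to 1.77 on 22 and 20 counts, so no change was detectable at that depth. The difference between the group means gave p = 0.198 (exact permutation test, two-sided).

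**Figure D1:**
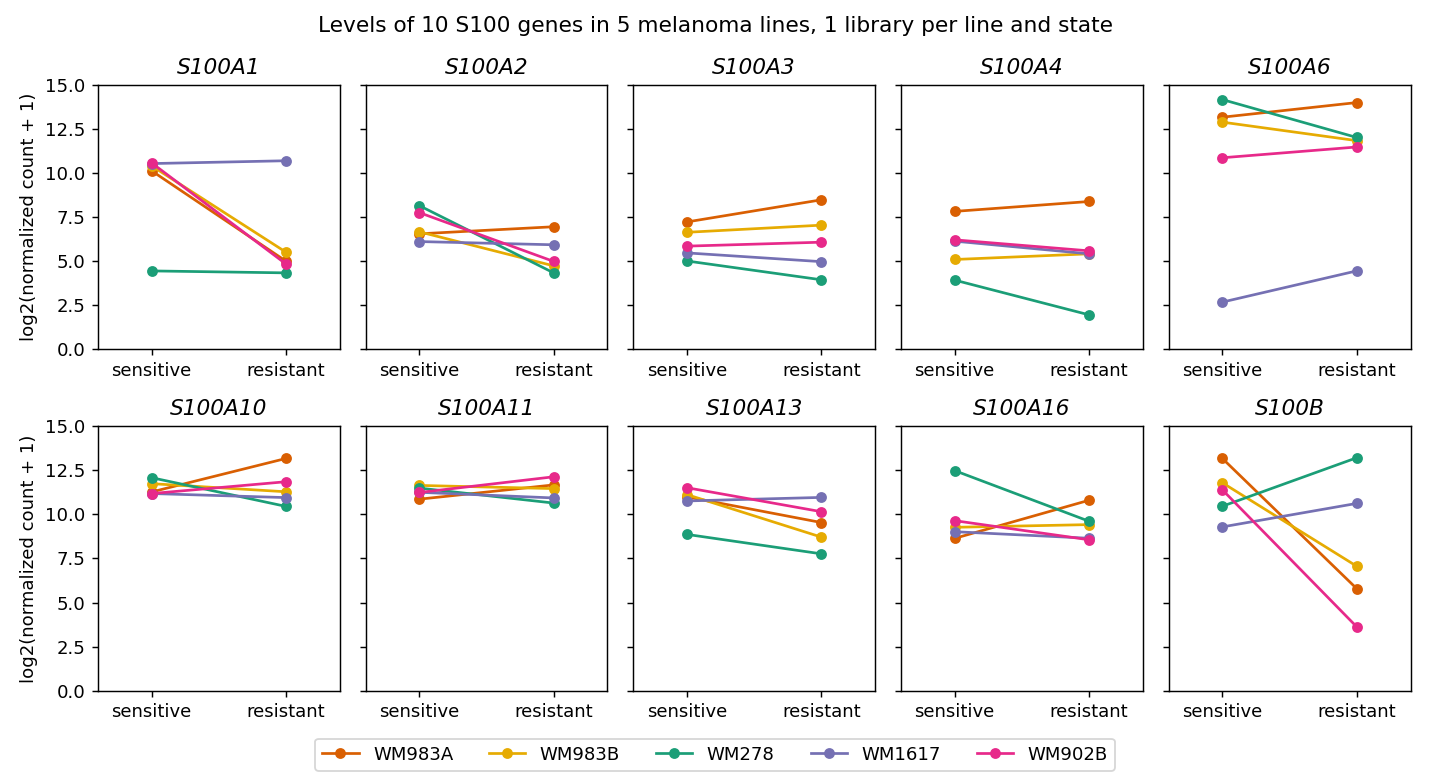
Each panel plots 1 S100 gene as log2(normalized count + 1) in the sensitive and the resistant library of each line, 1 point per library and a line joining the 2 libraries of a cell line, with colours for WM983A, WM983B, WM278, WM1617 and WM902B. S100A1 and S100B are far lower in the resistant libraries of WM983A, WM983B and WM902B, S100B is higher in those of WM278 and WM1617, and S100A6 is near the bottom in both WM1617 libraries.

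S100A13, which takes part in the export of fibroblast growth factor 1 (FGF1) from cells, was at least 2-fold lower in 4 of the 5 resistant lines. Its normalized counts in the sensitive libraries of WM983A, WM983B, WM278, WM1617 and WM902B were 2028, 2226, 464, 1731 and 2912, and in the resistant libraries 741, 418, 216, 1991 and 1133. The log2 ratio was -1.45 in WM983A, -2.41 in WM983B, -1.10 in WM278, -1.36 in WM902B and 0.20 in WM1617, and the groups overlapped through sensitive WM278 and resistant WM1617. Of all genes tested, 1.06% were at least 2-fold lower in 4 or more lines.

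S100A1 and S100A13 had ratios of the same sign in all 5 lines, and their levels over the 10 libraries had a Pearson r of 0.878 on the log2 scale, given without a test because the libraries are paired by line. By the spans given next the genes overlap head to head, while a RefSeq start of S100A13 lies beyond the far end of S100A1. In GENCODE release 44 on GRCh38, S100A1 lies on the plus strand at chr1:153627926-153632039 and S100A13 on the minus strand at chr1:153618787-153631360, and they share 235 exonic bases, 7.76% of those of S100A1 and 10.6% of those of S100A13. Whether the counting used strand is not given in the sources used here, so reads in the shared bases cannot be assigned with certainty. The antisense RNA ENSG00000272030 shares 320 exonic bases with S100A1 and had 21 to 486 counts per library, and ENSG00000271853 shares 536 with S100A13 on its own strand and had 12 to 175 counts. The S100A13 level differed less between the states than that of S100A1 in WM983A, WM983B and WM902B, where its ratio was -1.36 to -2.41 against -4.89 to -5.74.

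The sequences just upstream of the starts are shown for the overlapping pair and for every member whose window held a searched motif. For 9 of the 10 members, all but S100B, RefSeq starts were at hand, with 13 windows of 250 bases on GRCh38.p14. S100B was therefore not searched. The motifs were CATGTG and CACGTG, E-boxes that MITF (the melanocyte transcription factor) can bind, ACAAT, the core of SOX sites, and TGANTCA, the AP-1 site, searched on both strands and chosen after the values were seen. Capitals mark a match, and only the longest stretch that no annotated exon covers is printed, 5′ to 3′ on the strand of the gene, where CACATG is CATGTG read on the other strand. The stretches of S100A1, S100A2 and S100A16 and the first of S100A13 are intronic within the span of their own gene, and that of S100A3 lies in an intron of S100A4.
S100A1, chr1:153628249-153628383, plus strand: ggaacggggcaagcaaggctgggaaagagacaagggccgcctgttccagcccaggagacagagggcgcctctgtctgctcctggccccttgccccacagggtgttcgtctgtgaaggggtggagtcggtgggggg
S100A13, chr1:153627599-153627755, minus strand: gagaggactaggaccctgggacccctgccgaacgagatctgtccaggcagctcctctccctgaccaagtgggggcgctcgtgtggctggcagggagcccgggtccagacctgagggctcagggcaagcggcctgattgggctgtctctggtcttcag
S100A13, chr1:153634398-153634611, minus strand: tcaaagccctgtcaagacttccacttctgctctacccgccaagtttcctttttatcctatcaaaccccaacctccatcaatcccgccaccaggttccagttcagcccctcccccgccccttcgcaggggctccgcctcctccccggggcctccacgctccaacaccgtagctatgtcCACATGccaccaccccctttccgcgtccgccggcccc
S100A2, chr1:153565845-153566094, minus strand: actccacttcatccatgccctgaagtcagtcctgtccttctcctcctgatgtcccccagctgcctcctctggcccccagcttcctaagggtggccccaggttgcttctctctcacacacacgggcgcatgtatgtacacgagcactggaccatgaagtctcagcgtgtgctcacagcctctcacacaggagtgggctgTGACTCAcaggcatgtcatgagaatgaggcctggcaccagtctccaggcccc
S100A3, chr1:153549259-153549508, minus strand: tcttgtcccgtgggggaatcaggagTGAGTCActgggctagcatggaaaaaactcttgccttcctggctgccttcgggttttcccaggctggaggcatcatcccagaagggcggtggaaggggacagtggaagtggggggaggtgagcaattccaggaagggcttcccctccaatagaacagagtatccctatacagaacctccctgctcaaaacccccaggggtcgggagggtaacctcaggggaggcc
S100A16, chr1:153609356-153609605, minus strand: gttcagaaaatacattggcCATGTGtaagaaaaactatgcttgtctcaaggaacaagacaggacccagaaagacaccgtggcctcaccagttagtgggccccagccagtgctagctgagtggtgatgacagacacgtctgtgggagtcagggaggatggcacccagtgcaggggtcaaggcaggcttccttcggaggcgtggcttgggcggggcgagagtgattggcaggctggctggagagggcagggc
TGANTCA was found in 2 of the 13 windows, those of S100A2 and S100A3, and in 6.57% of all 35116 windows of the same length. CATGTG was found in 2, 1 each of S100A13 and S100A16, and in 9.42% of all windows. CACGTG and ACAAT had no match in the 13 windows and were found in 6.34% and 24.6% of all windows. A match describes letters in the window and no binding was measured.

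S100A2, which is known from basal epithelial cells and binds p53, was lower in 4 of the 5 resistant lines. Its normalized counts were 93.1, 101, 284, 68.4 and 216 in sensitive WM983A, WM983B, WM278, WM1617 and WM902B, and 123, 25.7, 19.3, 60.1 and 30.8 in the resistant libraries. The 4 lowest levels were all in resistant libraries, whereas resistant WM983A lay above 3 sensitive libraries, and the groups overlapped. The level was 14.1 times lower in WM278, 6.82 times lower in WM902B and 3.82 times lower in WM983B. The log2 ratio was -0.18 in WM1617 and 0.40 in WM983A, where the counting intervals of 0.616 to 1.26 and 0.994 to 1.77 included a ratio of 1. The mean log2 difference was -1.66, with p = 0.0476 by exact permutation, again without regard to the pairing by line.

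Each member was then compared between 5 resistant and 5 sensitive libraries by edgeR's quasi-likelihood test, run gene by gene over all genes. A call was set at a fold change of at least 2 and an unadjusted p of at most 0.05. The family as a whole was not tested. S100A2 was the 1 member of 10 that passed, lower in the resistant libraries by a log2 fold change of -1.55 (SE 0.604), where 4.41% of all genes tested passed in either direction and 0.885% were lower. Its edgeR p was 0.0273, and neither this fit nor the exact permutation test (p = 0.0476) takes account of the pairing by line. Its Benjamini-Hochberg adjusted p by edgeR over all genes was 0.669. No gene passed an adjusted p of 0.05 with edgeR, against 1235 at an unadjusted p of 0.05 and 763 with the fold change as well. DESeq2 without a block passed 106 genes, 0.613% of the 17288 fitted. None of these was a member, but DESeq2 gave no p for S100A1 and S100A16, which therefore could not pass. The S100A2 call was lost without WM983B, WM278 or WM902B, where the log2 fold change was -1.51, -0.99 and -1.25.

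With the cell line as a block, which compares each resistant library with its own parental line, the edgeR call passed to S100A1 and S100A13. Their log2 fold changes were -3.43 (SE 1.30, edgeR adjusted p = 0.464) and -1.23 (SE 0.364, edgeR adjusted p = 0.461), and S100A2 was at -1.66 (SE 0.719, edgeR adjusted p = 0.471). In that fit 5.54% of all genes were called, 2.05% lower. DESeq2 with the same block, added after the data were seen, called 4 members, S100A1, S100A2, S100A13 and S100B, all lower, where 8.64% of genes were called and 3.78% were lower. At an adjusted p of 0.05 it kept S100A1 (DESeq2 adjusted p = 0.00313, log2 fold change -3.44) and S100A13 (DESeq2 adjusted p = 0.0487, log2 fold change -1.23), where 2.93% of genes were kept. Without a block, limma-voom gave log2 fold changes of -3.08 for S100A1 (SE 1.60) and -3.10 for S100B (SE 1.53), with a limma adjusted p of 0.787 for each, so the size differed between tools as well as with the block. Without WM1617, edgeR called S100A1 at -5.03, S100A2 at -1.79 and S100A13 at -1.60 without a block, where 8.57% of genes were called and 2.83% were lower.

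**Figure D2:**
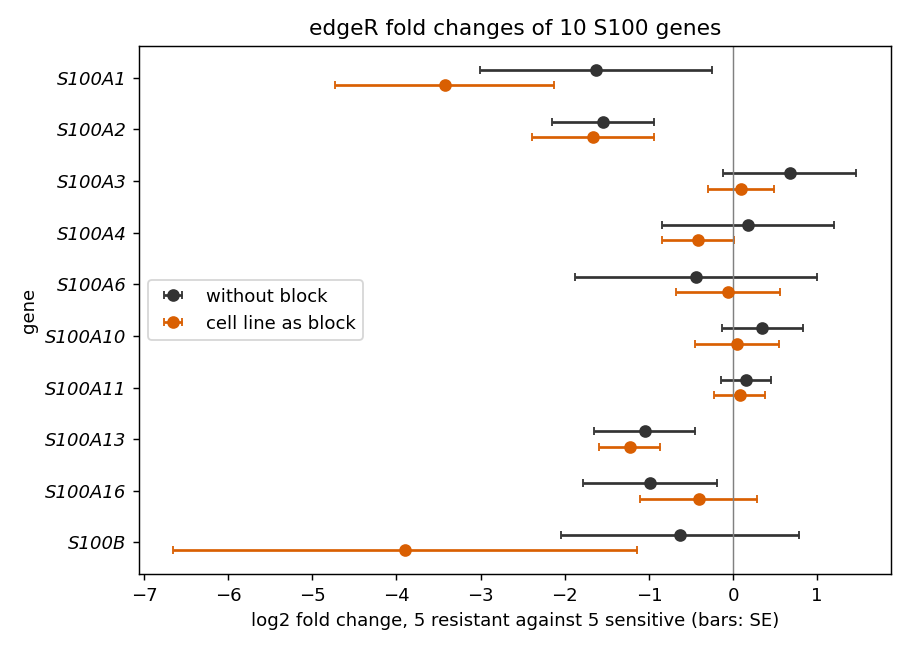
The plot gives the edgeR log2 fold change of each S100 gene, 5 resistant against 5 sensitive libraries, as points with bars of 1 SE, in black without a block and in orange with the cell line as a block. S100A2 is at -1.55 without the block, S100A1 is at -1.62 without and -3.43 with it and S100B at -0.63 and -3.90, while the bars of S100A3, S100A4, S100A6, S100A10 and S100A11 cross 0 in both fits.

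The other members did not pass in the edgeR fit without a block. S100A1 was at -1.62 (SE 1.38), S100A13 at -1.05 (SE 0.601), S100A16 at -0.99 (SE 0.795) and S100B at -0.63 (SE 1.42) on the log2 scale, with edgeR adjusted p-values of 0.846, 0.760, 0.827 and 0.954. The log2 fold change of S100A6 was -0.44, that of S100A4 was 0.18, of S100A11 0.15, of S100A10 0.35 and of S100A3 0.67. The median over the 10 members was -0.54, against 0.03 over all genes tested. In exact permutation tests of single genes the p of these members ran from 0.127 for S100A13 to 1 for S100A6, unadjusted. For none of the 10 members did the 5 resistant levels lie wholly above or below the 5 sensitive ones, as they did for 0.769% of all genes.

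The number of members past 2-fold varied by line. Resistant WM983A had 3 members at least 2-fold higher and 3 lower, where 36.3% of all genes were past 2-fold, 16.5% higher and 19.8% lower. WM278 had 1 higher and 7 lower, where 19% were past 2-fold, 12% higher and 7.03% lower. WM983B and WM902B each had 5 members at least 2-fold lower and none higher, where 27.4% of genes were past 2-fold in each. In WM983B 16.1% of genes were higher and 11.3% lower, and in WM902B 15.3% were higher and 12.1% lower. WM1617 had 2 higher, S100B and S100A6, and none lower, where 6.63% were past 2-fold, 2.83% higher and 3.79% lower. No member had the same sign in all 5 lines, whereas 5.67% of all genes were higher and 5.45% lower in every line. S100A1, S100A2, S100A13 and S100B were at least 2-fold lower in 3 or more lines, where 5.04% of all genes were. S100A3, S100A6, S100A10, S100A16 and S100B were at least 2-fold higher in 1 line and at least 2-fold lower in another, where 14.1% of all genes were.

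**Figure D3:**
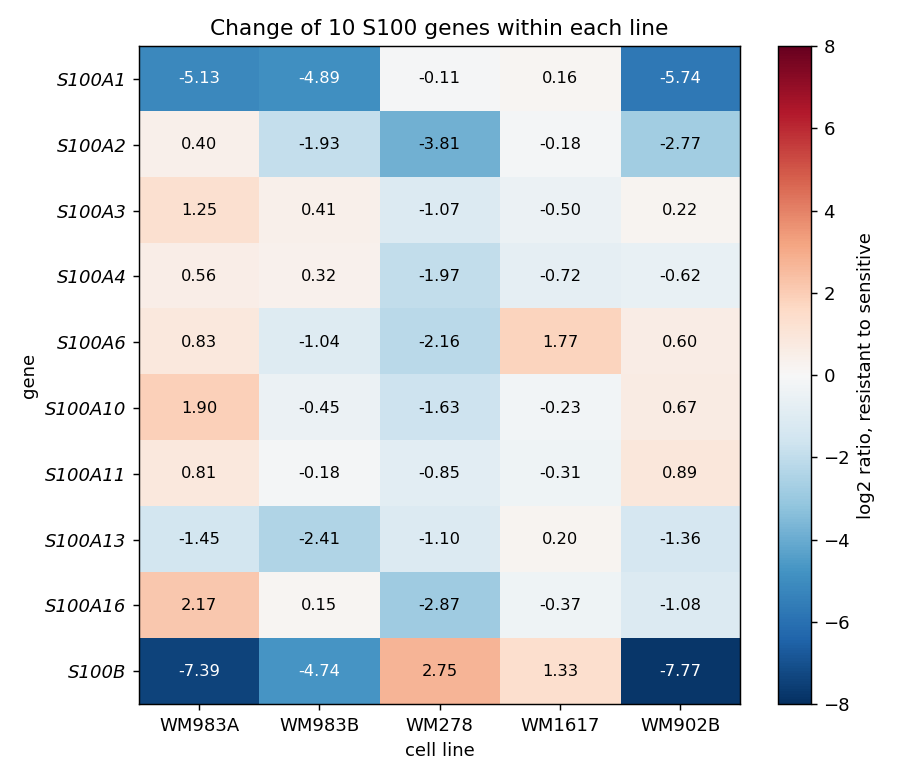
The grid gives the log2 ratio (resistant over sensitive normalized count) for each S100 gene (rows) in each line (columns), in red for higher and blue for lower in the resistant library, with the value printed in each cell. S100B spans -7.77 in WM902B to 2.75 in WM278, and S100A16 spans -2.87 in WM278 to 2.17 in WM983A.

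Of the annexin-binding members, S100A10 and S100A11 stayed abundant in every library. S100A10, the p11 protein that binds annexin A2 and has lost the ability to bind calcium, had normalized counts of 2463, 3409, 4315, 2314 and 2320 in sensitive WM983A, WM983B, WM278, WM1617 and WM902B, and 9197, 2487, 1396, 1973 and 3689 in the resistant libraries. Resistant WM983A held the highest level and resistant WM278 the lowest, on either side of the sensitive group. The level was 3.73 times higher in WM983A and 3.09 times lower in WM278, and the other 3 log2 ratios were between -0.45 and 0.67.

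S100A11, a partner of annexin A1, had normalized counts of 1856, 3192, 2868, 2433 and 2422 in the sensitive libraries and 3262, 2824, 1595, 1957 and 4490 in the resistant ones, in the same order of lines. It was the member that varied least, with log2 ratios from -0.85 in WM278 to 0.89 in WM902B and no line past 2-fold. Its ratio had the sign of that of S100A10 in all 5 lines, and the Pearson r of the levels of both genes was 0.703 over the 10 libraries. The tables also list 2 pseudogenes of S100A11, each with at most 1 count in a library.

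S100A6 (calcyclin) stood apart in WM1617. Its normalized counts were 9189, 7582, 18449, 5.43 and 1872 in sensitive WM983A, WM983B, WM278, WM1617 and WM902B, and 16378, 3676, 4141, 20.9 and 2846 in the resistant libraries. Both WM1617 libraries were lowest in their group, and sensitive WM1617 was 3399 times below sensitive WM278. The log2 ratio was -2.16 in WM278 and -1.04 in WM983B, 0.83 in WM983A and 0.60 in WM902B. In WM1617 it was 1.77 on only 5 and 24 counts, with a counting interval of the ratio from 1.44 to 12.9.

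S100A16, a widely expressed member, was at 397, 614, 5700, 517 and 798 normalized counts in the sensitive libraries and at 1786, 683, 779, 399 and 376 in the resistant ones, WM983A, WM983B, WM278, WM1617 and WM902B in turn. Sensitive WM278 held the highest level and resistant WM278 was 7.31 times lower, near the other libraries. Resistant WM983A was 4.49 times higher than its parental line, and the log2 ratio was 0.15 in WM983B, -0.37 in WM1617 and -1.08 in WM902B. Without WM278 the edgeR log2 fold change was 0.49, against -0.99 with it.

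S100A3, abundant in hair cuticle cells, and S100A4, a partner of non-muscle myosin known as metastasin, lie next to each other. S100A3 had normalized counts of 149, 98.8, 31.3, 43.4 and 57.0 in the sensitive libraries and 357, 131, 14.4, 30.5 and 66.7 in the resistant ones, in the order used above. S100A4 had 226, 33.3, 14.2, 69.5 and 73.3 in the sensitive libraries and 334, 41.8, 2.89, 41.8 and 47.2 in the resistant ones. For both genes WM278 was lowest and WM983A highest in each state, and the 2 states overlapped. S100A3 was 2.39 times higher in resistant WM983A and 2.09 times lower in resistant WM278, and its log2 ratio was 0.41 in WM983B, -0.50 in WM1617 and 0.22 in WM902B. The log2 ratio of S100A4 was 0.56 in WM983A, 0.32 in WM983B, -0.72 in WM1617 and -0.62 in WM902B. In resistant WM278 it had 3 counts against 15, a ratio of 0.203 with a counting interval from 0.0376 to 0.717. The Pearson r of the levels of S100A3 and S100A4 was 0.837 over the 10 libraries, and the S100A3 gene (chr1:153547329-153549258) lies inside the span of S100A4 (chr1:153543613-153550136) with 0 shared exonic bases.

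Levels of different genes were set side by side as TPM, counts divided by exonic length and scaled to the same total in every library. The length covers all annotated exons of a gene together, from 649 bases for S100A11 to 3030 for S100A1. Which transcripts were present was not measured, and the order of the genes depends on these lengths. Median TPM over the 10 libraries was 996 for S100A6, 882 for S100A11, 614 for S100A10, 182 for S100B, 142 for S100A13, 93.3 for S100A16, 46.5 for S100A1, 16.2 for S100A3, 12.1 for S100A2 and 11.3 for S100A4. Neighbours in this order overlapped in range, since S100A6 ran from 1.22 to 4241 TPM and S100B from 1.39 to 1229 TPM. With these lengths S100A11 ran from 577 to 1539 TPM and S100A10 from 324 to 1710 TPM. Both were above the whole range of S100A1, S100A2, S100A3, S100A4 and S100A13, which reached at most 285 TPM.

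The 10 members together made 7202 TPM in sensitive WM278 and 1665 TPM in resistant WM1617, the highest and the lowest of the 10 libraries. S100A6 led in sensitive WM983A, WM983B and WM278 and in resistant WM983A, with 38.9% to 58.9% of the members' TPM. S100A11 led in both WM1617 libraries, both WM902B libraries and resistant WM983B, with 31.1% to 48.1%. Resistant WM278 was led by S100B, at 37.6%, against 2.41% in its parental line.

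**Figure D4:**
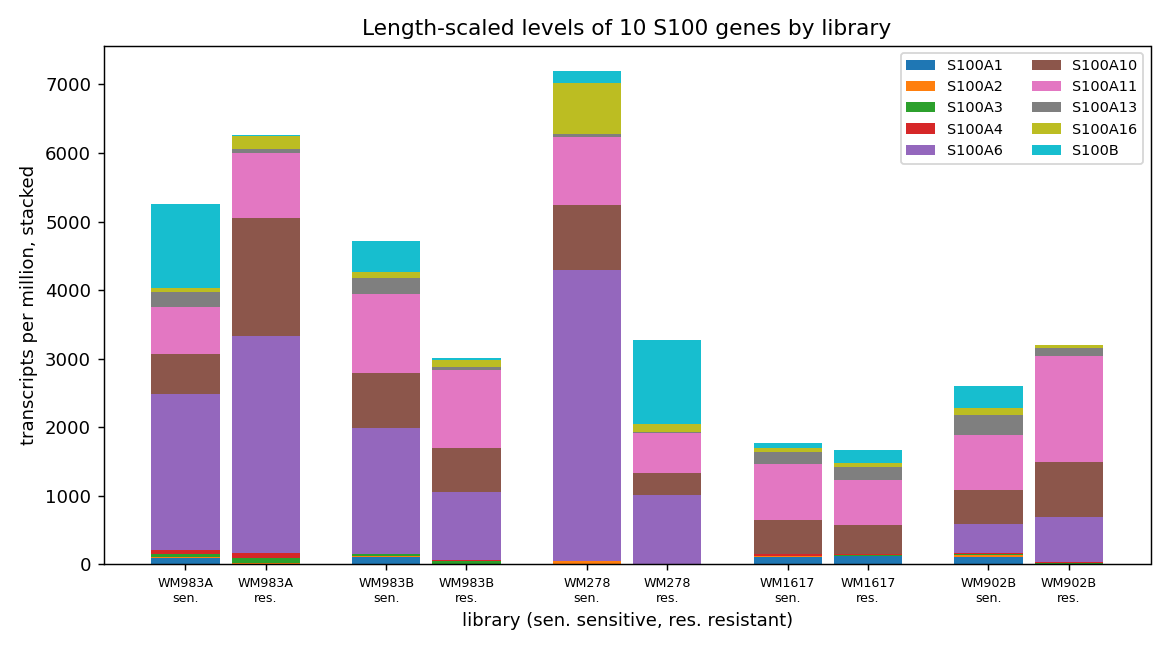
Stacked bars give the TPM of the 10 S100 genes in each library, sensitive and resistant side by side for each line. Sensitive WM278 is the tallest bar at 7202 TPM, made mostly of S100A6, and S100B forms the largest block of resistant WM278.

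The lineage genes were placed beside S100B and S100A1, since melanocytes are made from the neural crest under SOX10 and MITF. SOX10 had 4669 to 5226 normalized counts in the 5 sensitive libraries, 96.8 in resistant WM983A, 191 in resistant WM983B and 10.3 in resistant WM902B, and 4136 and 5139 in resistant WM278 and WM1617. S100B was at least 26.7 times lower in the 3 lines where SOX10 was low, and its r with SOX10 was 0.922 over the 10 libraries, which share lines and fall into a high and a low set. Among the 7 libraries with high SOX10, S100B still ran from 624 to 9445. Over the other 7 melanocyte markers the r of S100B was 0.927 with ERBB3, a receptor of the same lineage, and 0.0792 (MITF) to 0.482 (TYR) with the rest.

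Over the same 8 markers the r of S100A1 was 0.977 with PMEL and 0.974 with TYR, which make melanosome fibrils and melanin, 0.95 with DCT, 0.873 with MITF, 0.769 with MLANA, 0.671 with ERBB3, 0.585 with SOX10 and 0.437 with TYRP1. The pigment genes did not all share its pattern. TYRP1 had 16.3 and 11.2 normalized counts in sensitive WM1617 and WM902B and 13.1 in resistant WM1617, and MLANA 14.1 in sensitive WM983B, all libraries with high S100A1. In sensitive WM278 SOX10 was at 4825 normalized counts, PMEL at 66.5 and S100A1 at 20.9. PMEL was 7005 to 30690 in the 5 libraries with high S100A1 and 64.5 to 476 in the 5 with low S100A1. The summed normalized count of the 8 melanocyte markers was 32146 to 69519 in those 5 high libraries and 1380 to 6483 in the 5 low ones, with no marker at or under 3 counts in every library. In both WM278 libraries SOX10 was near the level of the sensitive lines (4825 and 4136), ERBB3 was at 1391 and 1240, and each of the other 6 markers was at 219 or less. The summed normalized count was 320 to 2204 over 6 keratinocyte markers, 121 to 24246 over 7 fibroblast markers, at most 78.0 over 5 leukocyte markers and at most 40.7 over 3 endothelial markers. The highest fibroblast sum, in resistant WM902B, held 18229 counts of COL1A1 and 4467 of PDGFRB, with 1 to 421 counts of each other marker. The highest keratinocyte sum, in resistant WM983A, held 1120 counts of KRT10 and 781 of CDH1, with 0 to 10 counts of each other marker. The part of these marker levels in the S100 results was not tested.

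**Figure D5:**
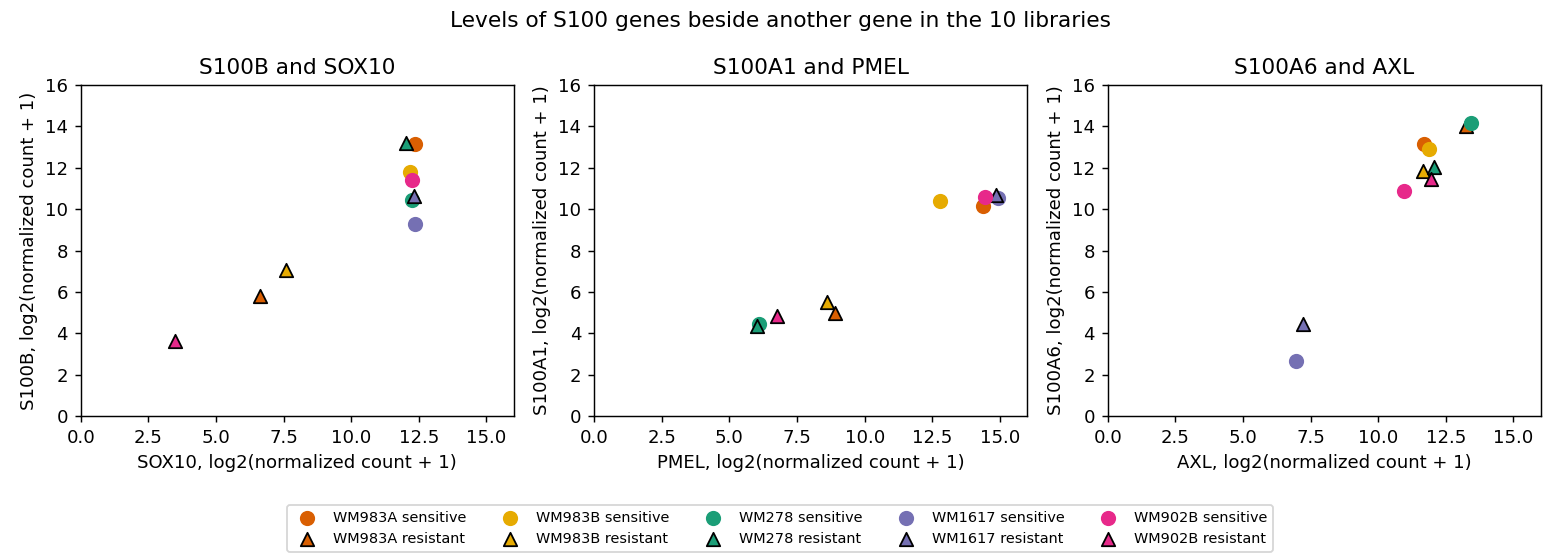
The 3 panels plot log2(normalized count + 1) of S100B against SOX10, S100A1 against PMEL and S100A6 against AXL, with 1 point per library, circles for sensitive and triangles for resistant, and colours for the lines. S100A1 and PMEL are both low in 5 libraries, including both WM278 libraries, while S100B and SOX10 are both low in the resistant libraries of WM983A, WM983B and WM902B only.

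Across all genes past the filter, the 3 whose log2 levels were most like those of a member over the 10 libraries were taken for the members with the widest ranges of ratio. For S100A1 they were GJB1 (r = 0.983), ICOS (0.980) and ROBO2 (0.979). For S100B they were ENSG00000254416 (0.975), SVILP1 (0.965) and CDH19 (0.958), the last a cadherin of Schwann cell precursors that ran from 2.05 to 2103 normalized counts, lowest in resistant WM902B and highest in resistant WM278. For S100A16 they were BUB3 (0.927), MARK2 (0.916) and NET1 (0.915). AXL, a receptor tyrosine kinase named here after its values were seen, was most like S100A6 (r = 0.981), with 123 and 148 normalized counts in sensitive and resistant WM1617 and 1967 to 11100 in the other 8 libraries. With 10 points for 17288 genes such values describe these libraries and carry no test.

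Of 20 genes for proteins that S100 proteins bind, 18 were tested, 0 were called higher and 1 lower by edgeR, where 4.41% of all genes were called and 0.885% were lower, and their median log2 fold change was -0.06 against 0.03 over all genes. The gene called lower was PLAUR, the urokinase receptor, at -1.82 (SE 0.554, edgeR adjusted p = 0.630). ANXA2, the partner of S100A10, was at 0.30 (SE 0.351), and its level had an r of 0.282 with S100A10. ANXA1, the partner of S100A11, was at 0.45 (SE 0.576), and CACYBP, which binds S100A6, at -0.55 (SE 0.418). FGF1 was at -0.14 (SE 0.762), beside its export factor S100A13. AGER, the cell-surface receptor of several secreted S100 proteins, had 0 to 5 counts per library. With the block, where 5.54% of all genes were called and 2.05% were lower, edgeR called 3 of the 18 lower, PLAUR at -1.68, PLAT at -2.18 and SYT1 at -2.94 on the log2 scale, and 0 higher.

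Of 12 other genes on chromosome 1 near the S100A cluster, 10 were tested and edgeR called 0 higher and 0 lower, with and without the block. Of all genes, 4.41% were called without the block and 5.54% with it, so 0 of 10 is near these shares. Without the block their median log2 fold change was -0.13, against 0.03 over all genes. The 3 with the highest levels were ILF2 at -0.39 (SE 0.257), SLC39A1 at -0.36 (SE 0.303) and CHTOP at 0.03 (SE 0.232). SLC27A3, a fatty acid transporter gene named after its values were seen, had an edgeR log2 fold change of -1.25 (SE 0.838) and a level with an r of 0.872 to that of S100A1. Its log2 ratio was -3.60 in WM983A, -1.26 in WM983B, -2.52 in WM902B, 0.52 in WM278 and 1.03 in WM1617.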

How the data were processed

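mRNA of 10 melanoma cultures was enriched with oligo-dT beads and sequenced with single-end reads of 75 cycles, 1 library each. HISAT2 was the authors' aligner, on GRCh38, and StrandNGS their quantification and statistics software. The versions, the gene annotation and the use of strand are not given in the sources used here. The raw values the authors deposited are expected counts per Ensembl gene, of which 24.1% of those above 0 are whole numbers, and the deposited normalized values are log2 ratios of each resistant library to the sensitive one of its line, used only as an alternative. They could be rebuilt from the raw values to within 1.63e-06. In sensitive WM983B, 455 raw values had become dates and were recovered from the deposited ratio, 0 of them a member.

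After rounding, the counts were filtered (filterByExpr), scaled (TMM) and fitted (glmQLFit, glmQLFTest) by edgeR 4.0.16, with DESeq2 1.42.0 and limma 3.58.1 as alternatives, under R 4.3.3. The SE of an edgeR log2 fold change, also drawn as bars, is its absolute value divided by the square root of the F statistic. It was calculated back from the test and is not an output of the fit. Python 3.11.15 with scipy 1.17.1, pandas 2.3.3 and numpy 2.4.6 gave the ratios and permutation tests, and matplotlib 3.10.9 the plots. All tests were two-sided. Adjusted p-values of the fits are Benjamini-Hochberg over all genes tested, while the calls and the exact permutation tests of members use unadjusted p-values. The permutation tests treat the 10 libraries as exchangeable, which libraries paired by line or sharing a patient are not, so their p-values are a guide only. The fits were also run on simulated counts, drawn independently for each library and without differences between lines. These data do hold such differences, so that run cannot tell how the fits perform here. With 5 lines as replicates, 1 culture each, p-values of the fits without a block set a difference against the spread between lines. With the cell line as a block they set it against the spread of the change over the lines. Lines that share a patient count as separate in both. No block was used in the main fit, as the study's methods mention none. An alternative blocked on the cell line, since every resistant line descends from the parental line of its name. Deviations of paired libraries from their group means correlated at 0.54, 0.675, 0.67 and 0.38 in WM983B, WM278, WM1617 and WM902B and at -0.0641 in WM983A, over 17288 genes. Counting intervals are exact 95% intervals of the ratio of 2 counts and cover counting error only, as does the floor of 3 counts. Exonic lengths and positions are from GENCODE release 44, matched by Ensembl ID for 56911 genes, 98.2% of all, and promoter windows are from RefSeq.

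The members and gene lists were chosen with earlier results of these data known. Named are all members, the genes of the partner, neighbour, marker and other S100 lists that the text describes, and the 3 genes most alike in level for the 3 members with the widest range of ratio. AXL, ERBB3, PMEL, TYR and the genes that the searched motifs refer to were chosen after the values were seen. Alternatives were other size factors, DESeq2, limma-voom, other filters, pseudocounts of 0.5 and 5, a 1.5-fold threshold, the block and leaving out each line. DESeq2 with the block was added after seeing the data.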

Additional observations from a re-analysis of the deposited data

Results flagged for a closer look

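In each group of 5 libraries, the gap between the highest or lowest level and its nearest neighbour was divided by the range of the group, on the log2 scale. Of 20 groups tested, 2 for each of the 10 S100 genes, 6 exceeded Dixon's critical value of 0.71. About 1 of 20 groups would exceed it if all values came from 1 normal population, whereas these libraries are different lines. The share over all genes was not computed, so the 6 flags are no result about the members as a family. The 6 came from 3 libraries, sensitive WM278 with 3 and sensitive and resistant WM1617 with 1 and 2.

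S100A1 in sensitive WM278, at 20.9 normalized counts, lay below the other 4 sensitive libraries by a share of 0.926 of the range, and in resistant WM1617, at 1666, above the other 4 resistant libraries by a share of 0.816. S100A13 in sensitive WM278, at 464 normalized counts, lay low by a share of 0.716. S100A16 in sensitive WM278, at 5700 normalized counts, lay high by a share of 0.739. S100A6 in WM1617 lay low by a share of 0.713 in the sensitive group and 0.736 in the resistant group, at 5.43 and 20.9 normalized counts.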

How the results depend on the processing

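The 763 genes called by edgeR became 2259 with no filter on low counts, 1493 by DESeq2 with the replicate block and 419 to 1493 with a line left out, and genes past an adjusted p of 0.05 became 106 by DESeq2 and 507 with its block. The 1 member called became 2 with the block, 4 by DESeq2 with the block, where 2 passed an adjusted p of 0.05, and 0 to 3 with a line left out, 0 without WM983B or WM902B and 3 without WM1617, and without WM278 the member called was S100A13 (-1.04) in place of S100A2. The exact permutation p of S100A2 was 0.0286 without WM983A and 0.0857 to 0.171 without any other line. In WM902B, 9 members were past 1.5-fold against 5 past 2-fold, where 27.4% of all genes were past 2-fold. The share of all genes past 1.5-fold was not computed, so the 9 cannot be set against it. The sign of the log2 fold change turned for S100A4 by limma-voom (-0.56), with the block (-0.41) and by DESeq2 with the block (-0.40), and for S100A6 by limma-voom (0.014). With a line left out it ran from -0.50 to 0.31 for S100A4, -1.38 to 0.31 for S100A6, -0.37 to 0.74 for S100A10, -0.089 to 0.35 for S100A11, -1.77 to 0.49 for S100A16 and -3.17 to 0.44 for S100B, the last positive only without WM983A. The mean log2 difference in the exact permutation test, with a line left out, ran from -0.23 to 0.35 for S100A3, -0.44 to 0.54 for S100A6, -0.41 to 0.47 for S100A10, -0.13 to 0.30 for S100A11 and -1.04 to 0.22 for S100A16. The cause was not tested. S100A1, S100A2 and S100A13 stayed lower in every fit and every alternative of the permutation test. The sign of none of the 50 ratios within lines changed over the alternatives, and the largest move was 0.684 on the log2 scale. DESeq2 without the block gave no p for S100A1 and S100A16. With 1 library per line and state, only the counting error of a ratio could be estimated. Among the members it was widest for S100A6 in WM1617 and S100A4 in WM278. Variation between cultures and between libraries was not measured.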

Other observations

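The other S100 genes of the tables were barely detected. Of 10 further S100 genes, none passed the filter on low counts. S100P reached 26 counts in resistant WM983A, S100A8, the calprotectin subunit of neutrophils, 12 counts in resistant WM902B and 0 in the other 9 libraries, and S100Z 8 counts in resistant WM278. S100PBP, which codes for a binding protein of S100P and no S100 protein, had 328 to 621 normalized counts over the 10 libraries, with an edgeR log2 fold change of 0.39 (SE 0.221).

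Among the partner genes that the filter on low counts removed, PLAU, which codes for urokinase, had 2 counts in sensitive and 1539 in resistant WM983A, 3 and 46 in WM983B, and 8 and 3330 in WM902B. It had 0 counts in both WM278 libraries and at most 1 count in WM1617. These are the 3 lines in which S100B and S100A1 were lower in the resistant library.

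Within the family the most negative relation of levels over the 10 libraries was that of S100B with S100A11 (Pearson r = -0.808, a description without a test). In resistant WM902B, S100A11 was at its highest, 4490 normalized counts, and S100B at its lowest, 11.3, and in resistant WM278 S100A11 was at its lowest, 1595, and S100B at its highest, 9445.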
